A study of Mus musculus with 24 samples.

Results

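The 10 genes described here encode the calcium release complex of muscle: the ryanodine receptors Ryr1, Ryr2 and Ryr3, the calcium buffers Casq1, Casq2 and Hrc, the junctional proteins Trdn and Asph, and the junctophilins Jph1 and Jph2. They were chosen by name, as the rows of the deposited count table that carry one of these symbols. All 10 were found among 52724 gene rows, and all 10 passed the filter on low counts that left 16018 genes for testing.

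Counts came from 24 whole-heart RNA libraries of mice, 6 for each of 4 genotypes, with 3 libraries of every genotype in each of 2 batches. FKl/l mice carried the floxed Fkbp1a gene and no Cre. FKl/l MHC+ mice carried it with Cre driven by the α-myosin heavy chain promoter, which the labels place at embryonic day 9, and FKl/l MCK+ mice with Cre driven by the muscle creatine kinase promoter, placed at embryonic day 13. MHC CRE Only mice carried the first Cre transgene without the floxed gene, going by their name. The floxed gene is thus shared by 3 of the 4 groups, and no group had the MCK transgene alone. The drivers may also differ in how strongly they express Cre, which was not measured here. Stage, level and transgene thus cannot be told apart in a comparison of the deletions. The sources used here give neither age nor strain. Nothing in the labels ties a library to an animal of its own, and p-values then describe how far libraries scatter, which may be technical. Libraries are named by genotype, batch and number.

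In cardiac muscle an action potential opens L-type calcium channels, and the calcium that enters opens ryanodine receptors in the facing membrane of the sarcoplasmic reticulum. Calsequestrin holds calcium inside the reticulum near the receptor, triadin and junctin tie it to the receptor, and junctophilins hold the reticulum against the cell membrane. FKBP12, the product of Fkbp1a, binds ryanodine receptors. Ryr2, Casq2 and Jph2 are the forms known from heart, while Ryr1, Casq1 and Jph1 are best known from skeletal muscle.

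Gene-row totals were 27799403 to 40412640 counts per library, and mitochondrially encoded genes took 25.7 to 36.5% of them. Fkbp1a lay between 121 and 147 CPM (counts scaled to library size) in FKl/l, between 51.1 and 81.1 CPM in FKl/l MCK+ and between 43.5 and 75.7 CPM in FKl/l MHC+. In MHC CRE Only it reached 138 CPM, but it was 81.8 CPM in the library labelled MHC CRE Only 1-3, which goes against that label. That library, MHC CRE Only 2-3 and FKl/l 1-1 (the last pair high in lung epithelium markers) stand apart from the rest. Calls of the 10 genes, their interactions with batch, the named partner genes and some of the markers are also given without them where they were called or became called. Cardiomyocyte markers summed to between 52095 and 67321 CPM over all libraries, and 0 of the 12 were absent. Atrial cardiomyocyte markers summed to 9308 CPM in FKl/l 1-3, where the next highest library, FKl/l 1-1, had 5027 CPM. FKl/l 1-3 was kept in the fits without the 3 libraries that stand apart. A whole heart mixes cell types, so fewer cells of a type and less RNA per cell cannot be told apart.

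The cardiac forms dominated the complex in every genotype. Levels between genes are compared here as CPM per kilobase of annotated exon. Hrc, which encodes a histidine-rich calcium-binding protein of the reticulum lumen, had the highest level, 374 CPM per kilobase on average over the 24 libraries. It was followed by Casq2 at 196 and Jph2 at 167 CPM per kilobase, whose ranges over libraries overlapped. Ryr2 and Trdn came next at 21.8 and 20.0 CPM per kilobase, again with overlapping ranges, and their order turned with the batch: Trdn averaged 26.0 and Ryr2 19.8 CPM per kilobase in batch 1, against 14.1 and 23.8 in batch 2. Asph averaged 8.32 and Casq1 7.39 CPM per kilobase, overlapping as well. The Casq1 mean was below that of Asph in FKl/l and MHC CRE Only (5.46 and 6.26, against 8.32 and 8.14) and above it in FKl/l MCK+ and FKl/l MHC+ (8.62 and 9.21, against 8.36 and 8.46). Jph1 averaged 2.52 CPM per kilobase. Ryr3 and Ryr1 were far lower, at 0.128 and 0.0128 CPM per kilobase, and did not overlap with each other or with Jph1. The exon length of Asph covers transcripts of an aspartyl hydroxylase as well as junctin, so its value per kilobase is that of the whole locus.

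**Figure D1:**
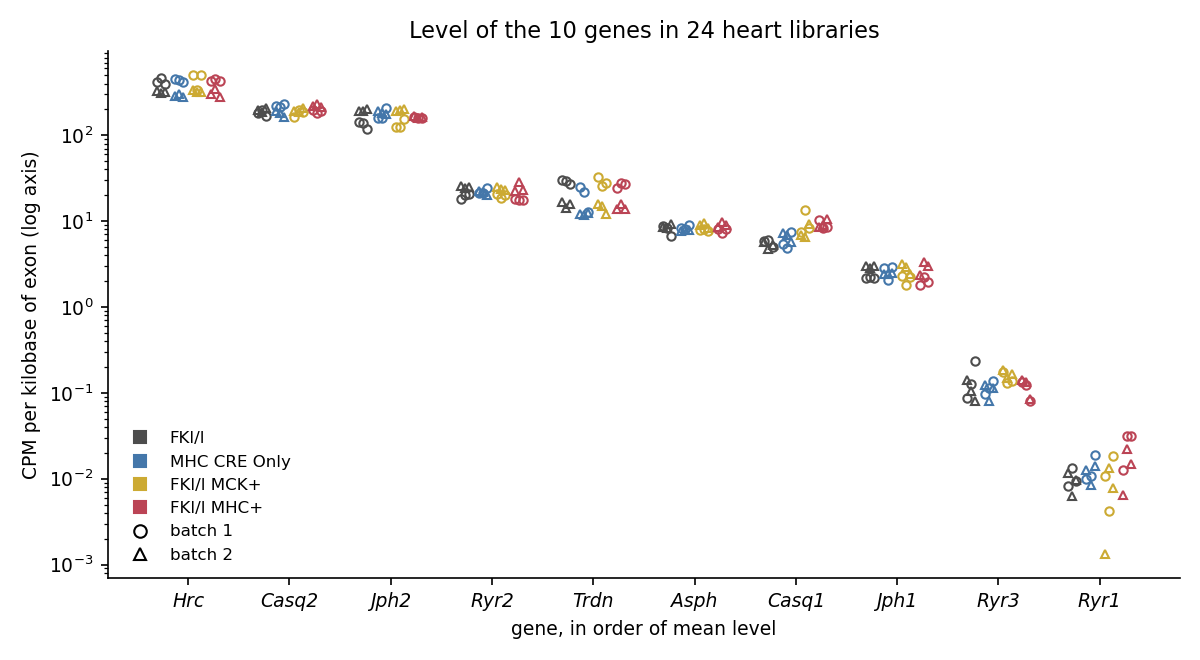
Level of each gene in CPM per kilobase of exon on a log axis, 1 point per library, coloured by genotype, with circles for batch 1 and triangles for batch 2. Hrc, Casq2 and Jph2 lie at the top and Ryr3 and Ryr1 at the bottom in all 4 genotypes.

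One gene of the 10 changed with genotype. Casq1, the calsequestrin of fast skeletal muscle, was higher in FKl/l MHC+ than in either control, and its values in FKl/l MCK+ were high too without passing the test. Of the 10 genes, 1 was called in FKl/l MHC+ against FKl/l, where 1.71% of all genes tested were called, and 1 in FKl/l MHC+ against MHC CRE Only, where 1.87% were. In FKl/l MCK+ against FKl/l 0 of 10 were called, against 0.0499% of all genes, with 1 at an unadjusted p under 0.05 with edgeR (5.24% of all genes) and 1 called by DESeq2 (0.0767% of the genes it gave an adjusted p). In MHC CRE Only against FKl/l 0 were called (0.0437% of all genes), with 1 at an unadjusted p under 0.05 (12.9%) and 1 called by DESeq2 (3.12%). For FKl/l MHC+ against FKl/l MCK+ 0 were called (2.15% of all genes), with 2 at an unadjusted p under 0.05 (15.4%) and 0 called by DESeq2 (3.69%). A gene was called where the p of edgeR's quasi-likelihood F-test stayed under 0.05 after Benjamini-Hochberg adjustment over every gene tested, and adjusted p-values below are of this kind unless DESeq2 or a permutation test is named. With so few genes, counts of 1 or 2 of 10 are not far from these backgrounds. Tested over all 4 genotypes at once, Casq1 differed (adjusted p = 0.00456) and the other 9 did not pass, where 2.44% of all genes did. The median log2 fold change of the 10 genes lay between -0.02 and 0.05 in the 5 comparisons, and that of all genes between -0.02 and 0.00. These comparisons share libraries.

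**Figure D2:**
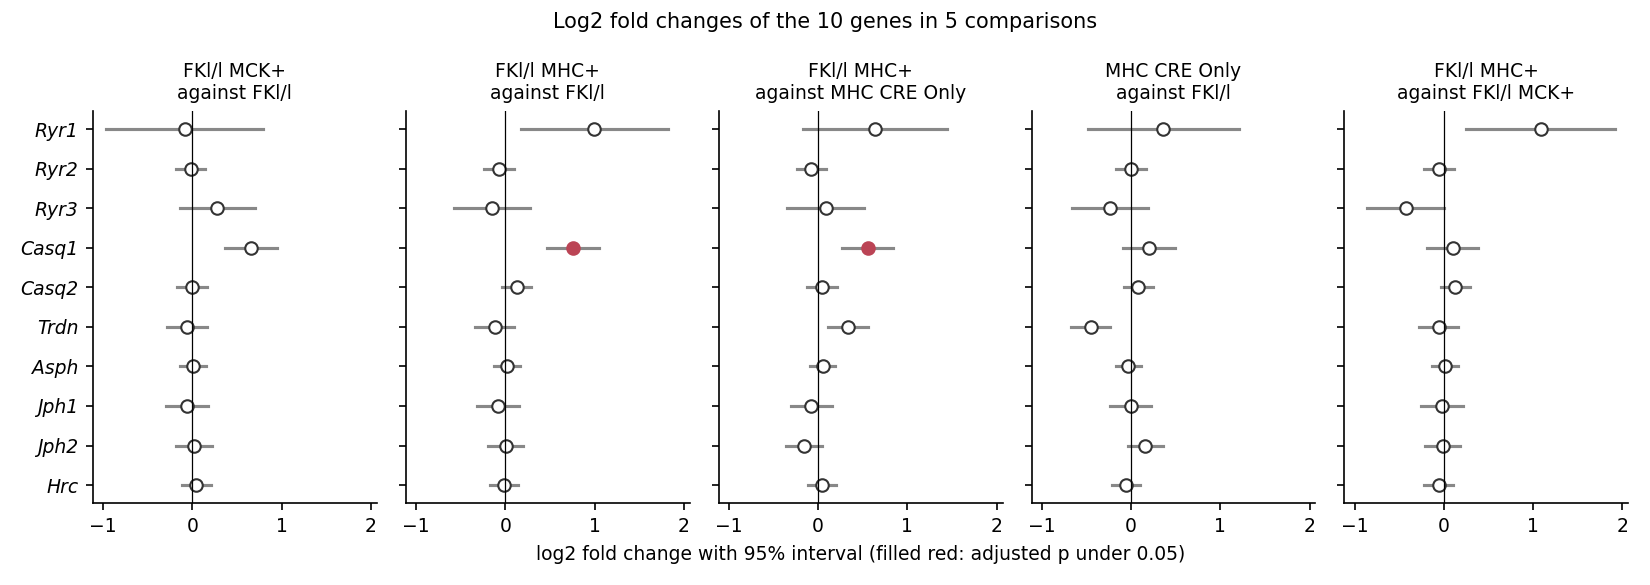
Log2 fold change of each gene with its 95% interval in the 5 comparisons, with filled red points where the adjusted p is under 0.05. Casq1 is filled in FKl/l MHC+ against FKl/l (0.76) and against MHC CRE Only (0.55), and most other intervals include 0.

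The sequence upstream of the Casq1 start is shown with that of Casq2, because these paralogs share a function and the first changed while the second did not pass the test. Both are the 250 bases before the RefSeq start in GRCm38.p6, at chr1:172219896-172220145 on the minus strand and chr3:102086165-102086414 on the plus strand. Capitals mark E-boxes (CANNTG, bound by myogenic and other basic helix-loop-helix factors) and, in Casq2, 1 box for MEF2, a factor of muscle gene transcription.
Casq1: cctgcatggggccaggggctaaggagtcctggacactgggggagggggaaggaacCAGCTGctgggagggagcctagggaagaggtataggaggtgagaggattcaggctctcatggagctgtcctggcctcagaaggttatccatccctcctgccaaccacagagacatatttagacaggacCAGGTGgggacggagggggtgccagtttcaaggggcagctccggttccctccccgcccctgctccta
Casq2: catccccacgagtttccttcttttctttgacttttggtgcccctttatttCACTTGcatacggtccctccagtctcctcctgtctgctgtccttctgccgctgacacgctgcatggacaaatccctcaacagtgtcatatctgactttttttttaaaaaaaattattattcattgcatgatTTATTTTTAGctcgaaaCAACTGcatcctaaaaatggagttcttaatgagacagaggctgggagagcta

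Each of the 2 sequences holds 2 E-boxes, starting 195 and 67 bases before the Casq1 start and 200 and 52 bases before the Casq2 start. The MEF2 box starts 69 bases before the Casq2 start. Motifs were searched on both strands in windows from 250 bases before to 50 after each start, in 7 windows for Casq1, Casq2, Jph2 (which has 2), Hrc, Ryr1 and Ryr2. An E-box was present in 6 of the 7 windows, and in 72.3% of 32851 windows of the same length, so it sets these genes apart from nothing. The MEF2 box was in 1 of 7 windows, against 3.2% of all. The CArG box of serum response factor (in 1.6% of all windows) and the letters CATTCC (14.7%), AGATAA (11.2%) and TATAAA (13.6%) had 0 matches in the 7. The Ryr1 window held none of these motifs, and the Ryr2 window was rich in G and C (65.3%, with 18 CpG against a median of 7). A match here is a string of letters and no measured site.

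Casq1 (ENSMUSG00000007122) lies on chromosome 1 from 172209894 to 172219868 in GRCm38, on the minus strand. In FKl/l its lowest, median and highest values were 9.16, 10.8 and 11.8 CPM, and in MHC CRE Only they were 9.43, 12.2 and 14.8 CPM. In FKl/l MCK+ they were 12.8, 15.3 and 26.2 CPM, and in FKl/l MHC+ 16, 17.2 and 20.5 CPM. Every FKl/l MHC+ library was above all 12 control libraries, and every FKl/l MCK+ library was above all FKl/l libraries but within or above the range of MHC CRE Only. The controls overlapped.

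Casq1 averaged 18 ± 1.94 CPM in FKl/l MHC+ (SD, n = 6), against 10.6 ± 1.09 CPM in FKl/l (SD, n = 6). This is 1.69-fold (log2 fold change 0.76 with a standard error, SE, of 0.140, adjusted p = 0.00376), and it remained called in all 24 fits that left out 1 library. The change was 0.68 in batch 1 and 0.83 in batch 2 on the log2 scale. Fitted on batch 1 alone it was not called (adjusted p = 0.0968).

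Against MHC CRE Only, at 12.2 ± 2.16 CPM (SD, n = 6), Casq1 was 1.47-fold higher in FKl/l MHC+ (log2 fold change 0.55 with SE 0.140 and adjusted p = 0.0377). The change was 0.60 in batch 1 and 0.51 in batch 2. This call was less stable: it was lost in 9 of 24 fits that left out 1 library, namely MHC CRE Only 1-1, 1-2, 2-2 or 2-3 or FKl/l MHC+ 1-1, 1-2, 1-3, 2-2 or 2-3, with adjusted p up to 0.103. Without the 3 libraries that stand apart the log2 fold change was 0.59 and the adjusted p 0.0869.

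In FKl/l MCK+ Casq1 averaged 16.8 ± 4.97 CPM (SD, n = 6), 1.58 times the FKl/l mean on the fitted scale (log2 fold change 0.66, SE 0.141), with an adjusted p of 0.112 with edgeR and of 0.00796 by DESeq2. FKl/l MCK+ 1-2 had the value of 26.2 CPM, and without it the log2 fold change was 0.48 (adjusted p = 0.167). The deletions were not shown to differ from each other in Casq1 (log2 fold change 0.10, 95% interval -0.19 to 0.38, adjusted p = 0.795), nor were the controls (0.20, -0.09 to 0.49, adjusted p = 0.573). In the authors' deposited table, whose test is against a minimum fold of 1.2, Casq1 in FKl/l MHC+ against FKl/l has a log2 fold change of 0.77, a p of 0.000562 and an adjusted p of 0.195, and no member of the 10 is under 0.05 in any of their comparisons.

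**Figure D3:**
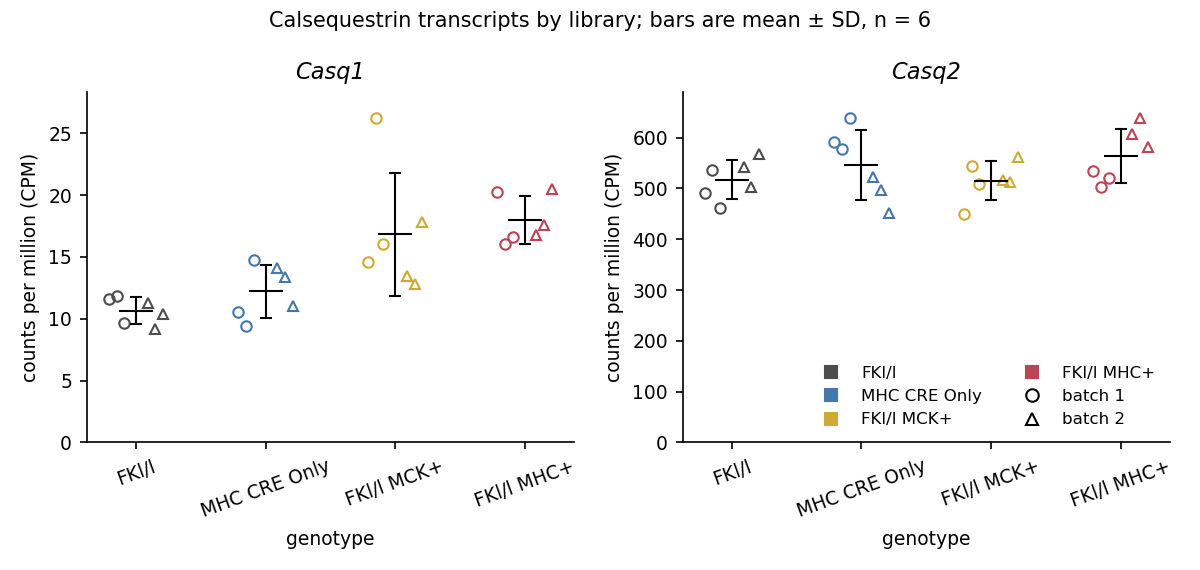
CPM of Casq1 and Casq2 in each library by genotype, with circles for batch 1, triangles for batch 2, and the mean ± SD of 6 libraries. For Casq1 the 6 FKl/l MHC+ libraries (16 to 20.5 CPM) sit above all control libraries, while for Casq2 the genotypes overlap.

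Casq2, the cardiac calsequestrin, did not pass the test in any comparison. Its lowest, median and highest values were 462, 520 and 567 CPM in FKl/l, 451, 550 and 638 in MHC CRE Only, 449, 515 and 561 in FKl/l MCK+, and 502, 558 and 639 in FKl/l MHC+. All 4 genotypes overlapped. Its log2 fold change was 0.13 (95% interval -0.04 to 0.29) in FKl/l MHC+ against FKl/l and -0.00 (-0.17 to 0.16) in FKl/l MCK+ against FKl/l.

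A ratio of paralogs within a library needs no library size. Casq1 made up 2.02 ± 0.203% of calsequestrin counts in FKl/l and 2.21 ± 0.437% in MHC CRE Only, against 3.14 ± 0.778% in FKl/l MCK+ and 3.10 ± 0.386% in FKl/l MHC+ (SD, n = 6 each). Casq2 thus remained the main form by far. The log2 ratio of Casq1 to Casq2 was 0.63 higher in FKl/l MHC+ and 0.63 higher in FKl/l MCK+ than in FKl/l, and 0.52 higher in FKl/l MHC+ than in MHC CRE Only. Each of these had p = 0.005, the smallest an exact permutation test within batches can give here (2-sided, 400 arrangements), and an adjusted p of 0.025 over 15 ratio tests. Against MHC CRE Only the difference came mostly from batch 1 (0.84, against 0.20 in batch 2). That adjusted p was over 0.05 without MHC CRE Only 2-1, 2-2 or 2-3 or FKl/l MHC+ 2-3 (up to 0.0938). Without the 3 libraries that stand apart the 3 ratio differences were 0.65, 0.65 and 0.57, with adjusted p of 0.0375, 0.0375 and 0.05 by the same exact permutation test, and the last no longer passed. Fewer libraries leave fewer arrangements, so the smallest p that test can give against MHC CRE Only is larger. Missing the threshold there cannot be read as a weaker difference (0.57, where it was 0.52 with all libraries). The other 12 ratio tests, which set Ryr1 against Ryr2 and Jph1 against Jph2 and the remaining genotype pairs for calsequestrin, had adjusted p of 0.0938 or more by the same exact test.

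**Figure D4:**
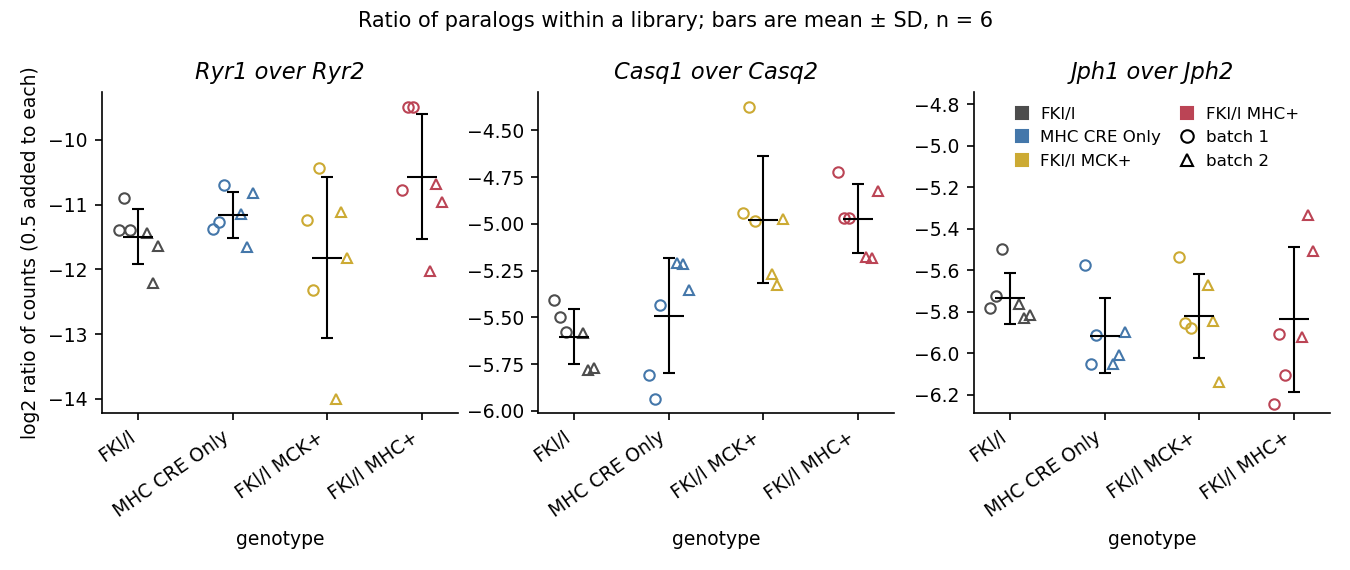
Log2 ratio of counts of the skeletal to the cardiac paralog in each library by genotype, for ryanodine receptors, calsequestrins and junctophilins, with the mean ± SD of 6 libraries. The calsequestrin ratio is higher in both deletions than in FKl/l, while the junctophilin ratio overlaps between genotypes and the Ryr1 ratio scatters over several log2 units.

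Markers of other cell types moved beside Casq1. Of 18 skeletal muscle markers 8 could be tested, and in FKl/l MHC+ against FKl/l 3 of them were higher and 0 lower: Mylpf (a fast myosin light chain), Tnni2 (fast troponin I) and Mybpc2 (fast myosin-binding protein C). Against MHC CRE Only, Mylpf (log2 difference 1.13, adjusted p = 0.0199) and Mybpc2 (0.83, adjusted p = 0.0277) were called with edgeR. Tnni2 was not (0.28, adjusted p = 0.565). Without the 3 libraries that stand apart Mylpf was not called there either (1.07, adjusted p = 0.0682). MHC CRE Only lay above FKl/l by 1.18 in Mylpf, 0.76 in Tnni2 and 0.27 in Mybpc2, with none of them called. In FKl/l MCK+ against FKl/l 0 of the 8 were called, and the list's median log2 fold change was 0.27, against 0.78 in FKl/l MHC+. The summed level of the list was 2426 to 4299 CPM in FKl/l, 3561 to 4411 in MHC CRE Only, 2580 to 4515 in FKl/l MCK+ and 3636 to 5048 in FKl/l MHC+, most of it from Ckm and Acta1, which heart also expresses. None of the 18 was at 0 in all 24 libraries, but the skeletal myosin Myh4 and the skeletal muscle regulator Myog averaged under 0.03 CPM in every genotype. Of 10 conduction and Purkinje markers 2, Kcne1 and Cntn2, were higher in each deletion against FKl/l. This list summed to 110 to 135 CPM in FKl/l, 127 to 150 in MHC CRE Only, 138 to 165 in FKl/l MCK+ and 131 to 153 in FKl/l MHC+. Each of these 5 markers was still called against FKl/l without the 3 libraries that stand apart. Of 10 endothelial markers 1, the receptor Robo4, was lower in FKl/l MHC+ against FKl/l (log2 difference -0.32, adjusted p = 0.0076), and the list summed to 693 to 889 CPM in FKl/l MHC+, where FKl/l had 768 to 1017, MHC CRE Only 807 to 958 and FKl/l MCK+ 867 to 1103. Within each batch all FKl/l MHC+ libraries lay below all FKl/l libraries in this sum. Robo4 was also lower in FKl/l MHC+ than in MHC CRE Only (-0.33, adjusted p = 0.00791 with edgeR). In FKl/l MHC+ against FKl/l MCK+ more of the list was called lower: Robo4, Tek, Pecam1, Cdh5, Tie1 and Kdr. Their adjusted p with edgeR ran from 0.000622 to 0.0188. Of 14 smooth muscle and pericyte markers 1, Des (desmin, which cardiomyocytes also express), was higher in FKl/l MHC+ than in FKl/l (by 0.37 on the log2 scale, adjusted p = 0.0399). The sum of that list, most of it Des, was 3617 to 4437 CPM in FKl/l MHC+ and 2846 to 3660 in FKl/l, while its median log2 fold change was -0.16. It was 3506 to 4236 CPM in MHC CRE Only and 3101 to 3712 in FKl/l MCK+. None of the markers of these lists was at 0 in all 24 libraries. Other markers were called too. Fbln1 (fibroblast) was higher in FKl/l MCK+ than in FKl/l (log2 difference 0.55, adjusted p = 0.00859 with edgeR) and than in FKl/l MHC+. Uchl1, from a list of 12 neuron and Schwann markers, was higher in FKl/l MHC+ than in every other genotype (0.59 against FKl/l, adjusted p = 0.000372). The list as a whole did not follow it. Its sum was 28.0 to 42.8 CPM in FKl/l, 28.7 to 54.0 in MHC CRE Only, 22.6 to 38.0 in FKl/l MCK+ and 26.8 to 39.9 in FKl/l MHC+. FKl/l MHC+ had less Pdgfrb (pericyte) than MHC CRE Only or FKl/l MCK+, and less Dpt (fibroblast) than FKl/l MCK+. It had more Tnnc1 (cardiomyocyte) than MHC CRE Only. The part of such cells in the Casq1 result was not tested.

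Among the ryanodine receptors, Ryr2 took 99.2 to 99.8% of receptor counts in every library. Ryr2 (ENSMUSG00000021313, chromosome 13, 11553102 to 12106945) is the release channel of cardiac muscle. Its lowest, median and highest values were 518, 649 and 734 CPM in FKl/l, 581, 625 and 700 in MHC CRE Only, 535, 634 and 712 in FKl/l MCK+, and 504, 583 and 816 in FKl/l MHC+. The genotypes overlapped throughout. Set against FKl/l, Ryr2 differed by -0.07 on the log2 scale (95% interval -0.24 to 0.09) in FKl/l MHC+ and by -0.02 (-0.19 to 0.15) in FKl/l MCK+, so these intervals reach no further than a log2 change of 0.24 in either direction.

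Ryr1 (ENSMUSG00000030592, chromosome 7, 29003344 to 29125179), the skeletal muscle channel, had 1 to 25 counts per library. Its lowest, median and highest values were 0.135, 0.208 and 0.287 CPM in FKl/l, 0.185, 0.254 and 0.408 in MHC CRE Only, 0.0291, 0.200 and 0.400 in FKl/l MCK+, and 0.141, 0.401 and 0.692 in FKl/l MHC+. FKl/l MHC+ had the highest libraries but overlapped every other genotype. The log2 fold change was 1.0 (SE 0.402, adjusted p = 0.223) against FKl/l and 1.09 (SE 0.408, adjusted p = 0.178) against FKl/l MCK+. Neither passed, and at this depth a change of that size was not resolved.

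Ryr3 (ENSMUSG00000057378, chromosome 2, 112631355 to 113217096), a widely expressed form, ranged from 1.52 to 4.48 CPM. Its medians were 2.19 CPM in FKl/l, 2.14 in MHC CRE Only, 2.98 in FKl/l MCK+ and 2.43 in FKl/l MHC+. The highest value was that of FKl/l 1-3, the library high in atrial markers. Without it the Ryr3 log2 fold change turned from -0.15 to 0.11 in FKl/l MHC+ against FKl/l. In MHC CRE Only against FKl/l it turned from -0.23 to 0.03, and none of these values was called. The lowest log2 fold change of Ryr3 was -0.43, in FKl/l MHC+ against FKl/l MCK+ (adjusted p = 0.321). The exons of Ryr3 overlap by 916 bases with those of Aven on the other strand. The library kit keeps strand, but the sources used here leave unstated how the counting treated strand, so reads of such partners may not have been told apart.

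Trdn (ENSMUSG00000019787, chromosome 10, 33080554 to 33476709) encodes triadin, which links calsequestrin to the receptor. Its lowest, median and highest values were 134, 203 and 283 CPM in FKl/l, 111, 117 and 232 in MHC CRE Only, 114, 193 and 307 in FKl/l MCK+, and 128, 188 and 258 in FKl/l MHC+. The wide ranges follow the batches, described below. MHC CRE Only had the lowest values: the log2 fold change was -0.45 against FKl/l (SE 0.108), with an adjusted p of 0.0896 with edgeR and 0.00975 by DESeq2. Within batch 2 the 3 MHC CRE Only libraries had 113, 111 and 115 CPM, below the FKl/l libraries at 154, 134 and 147 CPM. In batch 1 they had 232, 205 and 119 CPM, also below those of FKl/l at 283, 278 and 253 CPM.

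The value of 119 CPM belongs to MHC CRE Only 1-3. Without that library the Trdn difference from FKl/l was -0.34 (adjusted p = 0.129), and without all 3 libraries that stand apart -0.33 (adjusted p = 0.326). FKl/l MHC+ had more Trdn than MHC CRE Only (by 0.33 on the log2 scale, adjusted p = 0.105), which did not pass. Neither deletion was shown to differ from FKl/l (-0.12, 95% interval -0.34 to 0.10 in FKl/l MHC+, and -0.06, -0.28 to 0.16 in FKl/l MCK+). Over the 4 genotypes at once the adjusted p was 0.0563.

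Asph (ENSMUSG00000028207, chromosome 4, 9448069 to 9669344), whose locus gives junctin, was the steadiest gene, with a coefficient of variation of 8.45% over the 24 libraries. Its medians were 137 CPM in FKl/l, 129 in MHC CRE Only, 132 in FKl/l MCK+ and 135 in FKl/l MHC+, and its fold changes were within 0.05 of 0 on the log2 scale in all 5 comparisons. Hrc (ENSMUSG00000038239, chromosome 7, 45335290 to 45338974) had medians of 934, 928, 863 and 986 CPM in the same order, with overlapping ranges. Its log2 fold changes lay between -0.06 and 0.04.

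The junctophilins did not pass the test in any comparison. Jph2 (ENSMUSG00000017817, chromosome 2, 163336242 to 163397993), the cardiac form, had lowest, median and highest values of 497, 707 and 853 CPM in FKl/l, 678, 762 and 890 in MHC CRE Only, 525, 738 and 852 in FKl/l MCK+, and 673, 682 and 713 in FKl/l MHC+. The FKl/l MHC+ libraries were the most alike, but their log2 fold change against FKl/l was 0.00 (95% interval -0.19 to 0.20). Jph1 (ENSMUSG00000042686, chromosome 1, 16964560 to 17097889) ranged from 9.04 to 16.8 CPM, with medians of 12.8, 12.4, 11.8 and 11.5 CPM in the same order of genotypes. Its log2 fold changes lay between -0.08 and -0.00.

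More of the 10 genes were called between batches than over the 4 genotypes, and the same was true of all genes. Of the 10, 5 differed between batches, where 38.4% of all genes did: Trdn and Hrc were lower in batch 2, and Ryr2, Jph1 and Jph2 higher. Over the 4 genotypes Casq1 alone differed, where 2.44% of all genes did, so this contrast does not set the 10 apart. The batch test also had more libraries on each side than the comparisons between genotypes. Trdn averaged 243 ± 47.6 CPM in batch 1 and 132 ± 15.9 CPM in batch 2 (SD, n = 12 each), a log2 difference of -0.87 with SE 0.0765 and adjusted p = 1.98e-09. Hrc averaged 1122 ± 116 and 798 ± 55.0 CPM (SD, n = 12 each), a log2 difference of -0.49 (adjusted p = 9.05e-08). For Ryr2, Jph1 and Jph2 the log2 fold changes were 0.26, 0.32 and 0.29. Casq1 was 14.8 CPM in batch 1 and 14 CPM in batch 2 on average and did not pass (log2 fold change -0.07, adjusted p = 0.630). The share of mitochondrial counts and all else that differs between the batches cannot be told apart from the batch.

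**Figure D5:**
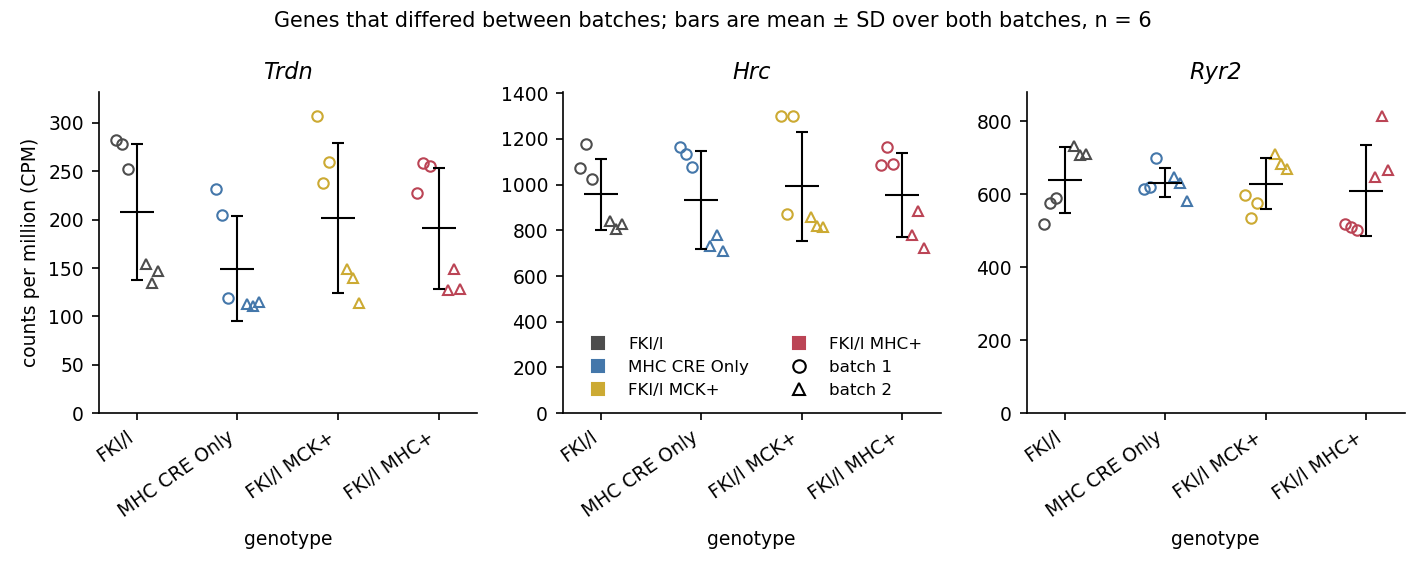
CPM of Trdn, Hrc and Ryr2 in each library by genotype, with circles for batch 1, triangles for batch 2 and the mean ± SD of 6 libraries over both batches. Trdn and Hrc are lower in batch 2 and Ryr2 higher on average, and in MHC CRE Only the lowest batch 1 circle for Trdn (119 CPM) lies close above the batch 2 triangles (111 to 115 CPM).

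Ryr2, Casq2 and Jph2 had a genotype difference that itself differed between batches in 1 or more comparisons. In FKl/l MHC+ against MHC CRE Only, 2 of the 10 had a called interaction with batch, where 3.07% of all genes did. Ryr2 changed by -0.34 in batch 1 and 0.20 in batch 2, and Casq2 by -0.21 and 0.32 (log2). In MHC CRE Only against FKl/l, 3 of the 10 had one, against 5.57% of all genes. Here Ryr2 changed by 0.20 and -0.21, Casq2 by 0.28 and -0.13, and Jph2 by 0.40 and -0.08. The pooled values of Ryr2 and Casq2 in these comparisons thus average within-batch values of opposite sign. None of the 5 interactions was called without MHC CRE Only 1-3 or without MHC CRE Only 2-3, and the 3 against FKl/l were not called with the size factors of DESeq2 or upper-quartile factors. Those 3 were also lost without other single libraries, such as FKl/l 1-3, 2-1 or 2-3 or MHC CRE Only 2-2. Their adjusted p in edgeR's interaction test then ran from 0.0595 to 0.111. In the comparisons of FKl/l MCK+ with FKl/l, FKl/l MHC+ with FKl/l and FKl/l MHC+ with FKl/l MCK+, 0 of the 10 interactions were called, where 0, 0.00624 and 0.0187% of all genes were. The Jph2 interaction was nonetheless of similar size in the last 2 of these (-0.51, adjusted p = 0.127, and -0.52, adjusted p = 0.0889) to that in MHC CRE Only against FKl/l (-0.48), and was -0.02 in FKl/l MHC+ against MHC CRE Only. Without the 3 libraries that stand apart Jph2 was called where FKl/l MHC+ was set against FKl/l (a difference of -0.56, adjusted p = 0.0336, with 0.735% of all genes) and against FKl/l MCK+ (-0.52, adjusted p = 0.0426, with 0.686%), and in no comparison with MHC CRE Only. With no filter on low counts it was called in the same pair (adjusted p of 0.0138 and 0.0126 in edgeR's interaction test). That fit also called it in MHC CRE Only against FKl/l (-0.45, adjusted p = 0.0290). In FKl/l MHC+ against FKl/l MCK+ it was also called without MHC CRE Only 1-3 (0.0475) or FKl/l MCK+ 1-3 (0.0225).

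Among partners of the complex, 4 genes were called in 1 or more comparisons, from lists too short to set their counts apart from the shares of all genes given above. Of 22 ryanodine receptor regulators (immunophilins, calmodulins, kinases, phosphatases and their anchors) 21 were tested, and Fkbp1a was lower in both deletions against FKl/l and in FKl/l MHC+ against MHC CRE Only, while the other 20 were not called in these comparisons. Its log2 fold change was -1.0 (adjusted p = 0.00032) in FKl/l MCK+ and -1.15 (adjusted p = 5.47e-06) in FKl/l MHC+ against FKl/l. Fkbp1b, which encodes the related FKBP12.6, had its highest mean in MHC CRE Only, 0.507 ± 0.222 CPM (SD, n = 6), and passed in none of the comparisons. The medians of this list were -0.03 and 0.03 in the deletions against FKl/l, where those of all genes were 0.00 and -0.00.

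Of 26 genes of the dyad and reticulum membrane (calcium channel subunits, trimeric cation channels, inositol trisphosphate receptors and others) 25 were tested and 1 was called in any comparison. Jsrp1, a junctional protein of skeletal muscle, was higher in FKl/l MHC+ than in FKl/l MCK+ at 0.737 ± 0.131 CPM, where the latter had 0.244 ± 0.0592 CPM (SD, n = 6 both), a log2 difference of 1.57 (adjusted p = 0.00152). Of 16 genes of calcium uptake and extrusion 15 were tested and 2 were called. Atp2a1, the fast skeletal muscle calcium pump, was higher in FKl/l MHC+ at 12 ± 3.39 CPM than in FKl/l at 4.2 ± 1.1 CPM (SD, n = 6 both, log2 difference 1.52, adjusted p = 0.000266) and than in FKl/l MCK+ at 6.03 ± 1.5 CPM (SD, n = 6, log2 difference 1.0, adjusted p = 0.0111). Against MHC CRE Only, Atp2a1 in FKl/l MHC+ differed by 0.59 and did not pass (adjusted p = 0.138 with edgeR). MHC CRE Only itself lay above FKl/l by 0.93 in Atp2a1, which did not pass either (adjusted p = 0.0842 with edgeR). Atp2a3, a pump of non-muscle cells, was lower in FKl/l MHC+ than in MHC CRE Only (log2 fold change -0.34, adjusted p = 0.0293) and than in FKl/l MCK+ (-0.43, adjusted p = 0.00616). Atp2a2, the pump of cardiac muscle, was not among the genes called. Without the 3 libraries that stand apart, a check chosen after seeing the data, each of these calls of Fkbp1a, Jsrp1, Atp2a1 and Atp2a3 was kept. Against MHC CRE Only, Fkbp1a in FKl/l MHC+ then differed by -1.17 (adjusted p = 1.48e-06) on the log2 scale and Atp2a3 by -0.35 (adjusted p = 0.0421). Leaving out MHC CRE Only 1-3, a control with low Fkbp1a (81.8 CPM), widens this Fkbp1a difference by itself. For Fkbp1a against MHC CRE Only it is thus no check.

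Genes most like each member were sought over the 24 libraries as the Pearson correlation of log2 CPM with batch means removed, among 9416 genes with a mean of at least 5 CPM. Genotype means were not removed, and all genes of a library share its depth and makeup. Casq1 was most like Kcne1, a potassium channel subunit (r = 0.87), followed by Masp1 (0.77) and Fzd2 (0.76). Ryr2 was most like Sgcb (0.91), Insr (0.90) and Tnks2 (0.90), and Ryr1 like Myh14 (0.76), Uchl1 (0.68) and Chd4 (0.68). With 1 to 25 counts of Ryr1 per library, its correlations carry a large counting error. Trdn was most like Efcab2 (0.92), Top1 (0.89) and Zranb1 (0.89), Casq2 like Mmachc (0.85), Ctps (0.83) and Pcmt1 (0.83), and Jph2 like Srpr (0.95), St3gal3 (0.92) and Atp6v1b2 (0.92). The leading genes were Tbc1d1 for Ryr3 (0.75), Cpeb4 for Asph (0.85), Tspyl1 for Jph1 (0.83) and Iftap for Hrc (0.83). Among the 10 themselves, the highest correlation was between Ryr2 and Jph1 (0.75), then Casq2 and Asph (0.65), and the lowest was between Trdn and Jph2 (-0.59). The 10 thus did not move as a single block across libraries.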

How the data were processed

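Whole-heart RNA was sequenced in 24 libraries. The authors deposited read counts, whole numbers that are not normalized, and tables of their own comparisons which per the file headers give log2 fold changes, a test statistic (a score) and p-values before and after adjustment. The submitters' processing notes name bcl2fastq 2.17, FastQC, Trim Galore, STAR, RSEM and mm10. The sources used here state neither the role of each tool nor the strand setting of counting. The 3660 transcript-named rows (0.873 to 4.28% of counts) were left out, and none named a member. Total depth leaves the lowest gene, Ryr1, with 1 to 25 counts, where counting error is large.

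Counts were tested with edgeR 4.0.16 (R 4.3.3, limma 3.58.1): filterByExpr by genotype, TMM, a term per genotype and per batch over all 24 libraries, a robust quasi-likelihood F-test, and Benjamini-Hochberg over 16018 genes per comparison. On simulated counts for FKl/l MHC+ against FKl/l over 16018 genes it called 81% of genes changed by log2 1 and 47% of those changed by 0.5, with 3 false calls. The simulated counts held no batch difference and no library that stands apart, so performance on the real libraries may be worse. CPM are on TMM-scaled library sizes. Ratios used 0.5 added counts. DESeq2 1.42.0 and limma voom were alternatives, with other scalings, filters, terms and library sets. Named genes are the 10 members, Fkbp1a, Fkbp1b, up to 4 called genes of each partner list with the smallest adjusted p, and the 3 genes most like each member. Marker genes called are named too. The members, lists and rules were chosen with earlier results of these data known. Positions are GENCODE M21 (GRCm38). Promoters are RefSeq, GRCm38.p6, with an entry for 6 members.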

Additional observations from a re-analysis of the deposited data

Results flagged for a closer look

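In 40 groups of 6 libraries (10 genes by 4 genotypes), the highest or lowest library stood apart in 2, by a gap above Dixon's 95% critical value. Chance flags about 1 in 20 groups. Asph was 109 CPM in FKl/l 1-3, the lowest of its genotype. Jph2 was 713 CPM in FKl/l MHC+ 2-1, the highest of a genotype whose other libraries lay close together.

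The difference between batches of a genotype effect passed the test for 3 genes. In FKl/l MHC+ against MHC CRE Only the log2 fold change was greater in batch 2 than in batch 1 by 0.54 for Ryr2 (adjusted p = 0.0208) and by 0.53 for Casq2 (adjusted p = 0.0199) in edgeR's test of the interaction. In MHC CRE Only against FKl/l it differed by -0.41 for Ryr2 (adjusted p = 0.0434), -0.42 for Casq2 (adjusted p = 0.0397) and -0.48 for Jph2 (adjusted p = 0.0410). These comparisons share the MHC CRE Only libraries. Without MHC CRE Only 1-3 the 5 differences were 0.47, 0.49, -0.35, -0.37 and -0.34 in the same order, with adjusted p of 0.0633, 0.0554, 0.122, 0.103 and 0.135. The cause was not tested.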

How the results depend on the processing

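The call of Casq1 in FKl/l MHC+ against FKl/l was the steadiest, and that against MHC CRE Only the least steady. Of the 10 genes, the number called in FKl/l MHC+ against FKl/l was 1 with each library left out, 0 under a minimum fold of 1.2 (adjusted p = 0.0548) and in batch 1 alone, and 2 in batch 2 alone. There Jph2 was called lower (-0.25, adjusted p = 0.0264), against a value of 0.00 over both batches. In FKl/l MHC+ against MHC CRE Only it was 0 with no filter on low counts, with no batch term, under the minimum fold, in batch 1 alone and without the 3 libraries that stand apart, 3 in batch 2 alone (Casq1, Casq2 and Asph), and 0 to 1 with 1 library left out. With DESeq2 it was 1 in FKl/l MCK+ against FKl/l (Casq1) and 1 in MHC CRE Only against FKl/l (Trdn). In FKl/l MHC+ against FKl/l MCK+ it was 1 in batch 2 alone (Jph2). Over the 4 genotypes it was 2 with limma voom and with DESeq2, the second being Trdn, and 1 to 2 with 1 library left out (2 without MHC CRE Only 1-1, MHC CRE Only 1-3 or FKl/l MCK+ 2-3). Between batches it was 5 to 6 with 1 library left out. Interactions with batch were called for 1 gene (Jph2) without the 3 libraries and for 0 to 4 with 1 left out (0 without MHC CRE Only 2-3, and 1 without MHC CRE Only 1-3, FKl/l MHC+ 1-2 or FKl/l MHC+ 1-3). For the alternative counts over the 4 genotypes, between batches and of interactions with 1 library left out, shares of all genes are not given. Those counts thus do not set the 10 genes apart.

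The log2 ratio of Casq1 to Casq2 differed between batches 1 and 2 where MHC CRE Only was involved: 0.84 and 0.20 higher in FKl/l MHC+ than in it, and -0.23 and 0.45 in it against FKl/l. With 1 library left out the first lay between 0.46 and 0.59. Without the 3 libraries it was 0.57 with an adjusted p of 0.05 by the exact permutation test, whose smallest possible p is larger with fewer libraries. The ratio of Jph1 to Jph2 in MHC CRE Only against FKl/l lay between -0.25 and -0.13 (adjusted p = 0.0188 by the exact permutation test without MHC CRE Only 1-1), and that of Ryr1 to Ryr2 in FKl/l MHC+ against FKl/l between 0.79 and 1.14 (adjusted p = 0.0188 by the same test without FKl/l MHC+ 2-1).

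Libraries with the same number were not alike: their correlations over 36 pairs ran from -0.23 to 0.15, 3 of them over 0.1, and 5 of 24 libraries correlated best with their own number. A fit with the library number as a replicate block called 0 of the 10 genes in FKl/l MHC+ against MHC CRE Only (Casq1 adjusted p = 0.0712) and 226 genes in all in FKl/l MHC+ against FKl/l, where 274 were called without it.

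Over all genes, the fit called 8, 274, 299, 7 and 345 genes in the 5 comparisons in the order of the plot of fold changes, where DESeq2 called 19, 556, 612, 229 and 571, the minimum fold left 3, 42, 17, 2 and 17, and a fit with no batch term 5, 120, 42, 4 and 103. With 1 library left out these counts lay between 5 and 11, 152 and 407, 135 and 482, 4 and 17, and 143 and 490. They moved over 1.5 times without FKl/l 2-2, 2-3 or FKl/l MCK+ 2-3 in the first comparison, FKl/l 1-2 or FKl/l MHC+ 1-2, 1-3 or 2-3 in the second, MHC CRE Only 2-1 or 2-2 or FKl/l MHC+ 1-2, 1-3, 2-1 or 2-3 in the third, MHC CRE Only 1-1 or 1-2 or FKl/l MHC+ 2-2 in the fourth, and any FKl/l MCK+ of batch 1 or FKl/l MHC+ 1-2, 1-3 or 2-3 in the fifth, so the shares of all genes called vary as much. Batch 1 alone gave 1, 78, 17 and 211 in all but the second comparison, and batch 2 alone 160, 915, 79 and 171 in all but the first. In FKl/l MHC+ against FKl/l the count was 496 without the 3 libraries. In MHC CRE Only against FKl/l it was 15 with no filter and 4 with the 2 genotypes fitted alone or without the 3 libraries. Of 1894 alternative log2 fold changes of the 10 genes, 109 had another sign than the fit reported, and 108 of these were called in neither. Scaling moved the median of all genes by at most 0.0226.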

Other observations

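Jph2 differed between batches in 2 genotypes far more than in FKl/l MHC+. It averaged 567 ± 61.3 CPM in batch 1 and 823 ± 25.8 CPM in batch 2 of FKl/l, and 573 ± 74.7 and 836 ± 17.4 CPM in FKl/l MCK+ (SD, n = 3 each). In FKl/l MHC+ it averaged 678 ± 8.59 and 692 ± 18.7 CPM (SD, n = 3 each), and in MHC CRE Only 750 ± 121 and 778 ± 30.1 CPM. Within batches, Jph2 in FKl/l MHC+ against FKl/l changed by 0.26 in batch 1 and -0.25 in batch 2 on the log2 scale, a difference of -0.51 that did not pass (adjusted p = 0.127 in edgeR's test of the interaction) but did without the 3 libraries that stand apart (-0.56, adjusted p = 0.0336) and with no filter on low counts (-0.52, adjusted p = 0.0138). The cause was not tested. This gene was singled out after its values were seen.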
